A study of Caenorhabditis elegans with 35 samples.

Results

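The F-box A (fbxa) genes of Caenorhabditis elegans form a large family of this nematode. Members were taken as all probe sets whose deposited gene symbol was fbxa followed by a number, and probe sets with identical values on every array were counted once. This gave 154 members carrying 151 symbols, out of 18869 distinct probe sets in the whole series. The symbols fbxa-116, fbxa-136 and fbxa-46 each had a pair of distinct probe sets. By RefSeq's gene table (assembly WBcel235), 135 members are protein coding and 19 are pseudogenes, and 68 lie on chromosome V, 41 on III, 17 on II, 15 on X, 7 on I and 6 on IV.

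F-box proteins are the substrate-binding subunits of SCF ubiquitin ligases. In these complexes a cullin scaffold carries a RING protein at one end and a Skp1-related adaptor (an SKR protein in worms) at the other, and the F-box protein docks on the adaptor and chooses what is ubiquitinated. The worm F-box A proteins pair an F-box with a FOG-2 homology (FTH) domain, and FOG-2 itself promotes spermatogenesis in hermaphrodites. Most members have no assigned substrate. FBXA-75 and FBXA-158 are known as partners of the cullin CUL-6 in the intracellular pathogen response of the intestine.

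RNA came from whole worms of the L3 larval stage grown at 20 degrees, and was measured on 35 biotin-labelled arrays. The same 3 groups were profiled in each of the F4 and F5 generations: wdr-5 homozygous mutants (wdr-5/wdr-5), genetically wild-type animals with wdr-5 mutant ancestors (+/+ from wdr-5), and wild type with wild-type ancestors (+/+ from +/+). Every group had 6 arrays, 3 from each of 2 birth days, except F5 +/+ from wdr-5, which had 5 (2 from birth day 1). WDR-5.1 is a WD-repeat protein found in histone H3 methyltransferase complexes that act on lysine 4. The labels give the genotype as wdr-5, with no allele named.

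The wdr-5.1 transcript served as the check of the genotype. Its level was 4.01 to 5.91 (log2 intensity) on the 12 mutant arrays and 8.30 to 8.88 on the wild-type arrays of both lineages, with no overlap. Levels of the birth days were not compared, because the low end of the deposited values differs: the 25th percentile of an array ranged over 3.71 to 3.95 among the arrays of birth day 1 and over 4.52 to 4.66 among those of birth day 2. All differences below are on the log2 scale, taken within birth days or with a birth day term, and tested with limma. A member was called when its p, adjusted by Benjamini-Hochberg over all 20806 probe sets, was under 0.05. The labels do not say that replicates came from separate cultures, so the p-values measure only the spread between these samples, which may be technical. In whole worms, fewer cells of a type and less RNA per cell cannot be told apart.

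Most F-box A transcripts gave little signal in L3 worms. The mean percentile of a member among all probe sets of an array was under 25 for 101 of the 154 members (65.6%), and 64 members stayed under the 25th percentile on every array. The median over members was the 15.7th percentile, 15 members averaged above the 50th and 3 above the 75th. Fbxa-72 was the brightest, with a mean level of 8.09 (83.6th percentile), followed by fbxa-101 (7.55), fbxa-59 (7.29), fbxa-215 (7.07) and fbxa-210 (7.04). The dimmest were fbxa-56, fbxa-118, one probe set of fbxa-46, fbxa-73 and fbxa-221, with mean levels of 3.43 to 3.49. Signal of different probe sets depends on their probes as well as on the transcript, so this order describes array signal. Whether the dim signals lie above background was not measured here, and cross-hybridisation between similar members was not tested.

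**Figure D1:**
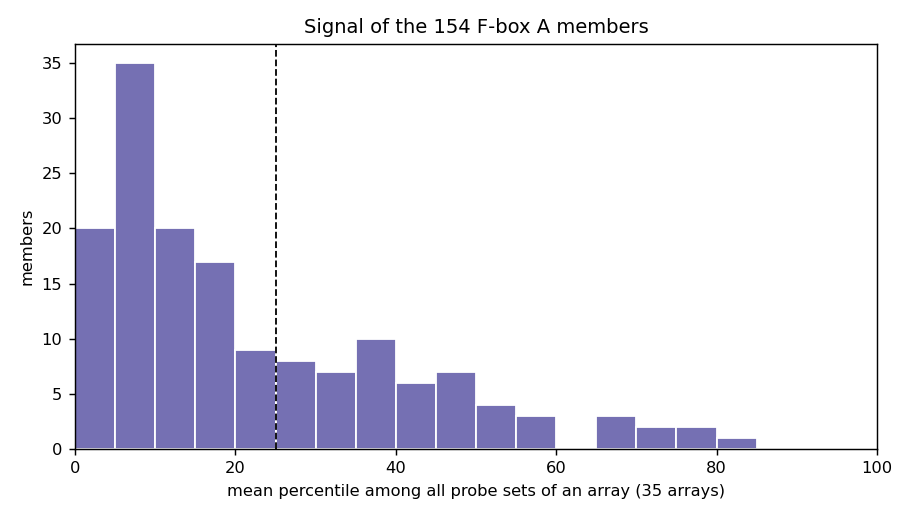
Histogram of the mean percentile of each of the 154 F-box A members among all probe sets of an array, over 35 arrays, with the dashed line at the 25th percentile. The 101 members left of the line make up 65.6% of the family.

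The median level over members ran from 3.40 to 3.48 in F4 mutants, 3.33 to 3.43 in F4 +/+ from wdr-5 and 3.46 to 3.50 in F4 +/+ from +/+ on the arrays of birth day 1. The arrays of birth day 2 ran from 4.43 to 4.45 in F4 mutants, 4.39 to 4.44 in F4 +/+ from wdr-5 and 4.40 to 4.45 in F4 +/+ from +/+. In F5, the range on birth day 1 was 3.61 to 3.65 in mutants, 3.51 to 3.58 in +/+ from wdr-5 and 3.51 to 3.56 in +/+ from +/+. The mutants thus lay above both wild-type groups, and so did their median over all probe sets. That median was 5.455 to 5.498 in mutants, 5.434 to 5.435 in +/+ from wdr-5 and 5.438 to 5.452 in +/+ from +/+. The F5 ranges of birth day 2 overlapped, at 4.38 to 4.42 in mutants, 4.37 to 4.42 in +/+ from wdr-5 and 4.37 to 4.46 in +/+ from +/+. The median difference over members was close to that over all probe sets in each mutant comparison with +/+ from +/+, at -0.01 against -0.02 in F4 and 0.01 against -0.03 in F5. The calls described next fell on a minority of members, in both directions.

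In F4 mutants, 16 of the 154 members differed from +/+ from +/+, where 10.3% of all probe sets were called. Of these, 5 were higher (4.77% of all probe sets) and 11 lower (5.53%). Fbxa-107 fell most. Its level was 4.45, 4.65 and 4.29 in F4 mutants of birth day 1, against 5.93, 5.72 and 6.10 in +/+ from +/+. On birth day 2 it was 4.47, 4.80 and 4.43 in mutants, against 5.67, 5.46 and 5.67 in +/+ from +/+. All 6 mutant arrays lay below every +/+ from +/+ array of their day, and the difference of -1.24 ± 0.14 (SE, adjusted p = 3.63e-07) is 2.37-fold lower. The other members that fell in F4 mutants included fbxa-192 (-0.86), fbxa-108 (-0.60), fbxa-210 (-0.59), fbxa-193 (-0.55), fbxa-129 (-0.46), fbxa-115 (-0.40), fbxa-72 (-0.40), fbxa-11 (-0.38) and fbxa-220 (-0.21). The 5 that rose were fbxa-59 (0.54), fbxa-218 (0.43), fbxa-98 (0.34), fbxa-182 (0.26) and fbxa-55 (0.19). Fbxa-216, which fell by 0.36 over both days, is the called member whose sign differed between the days, at -0.82 on birth day 1 and 0.11 on birth day 2. The other values also average the days. From birth day 1 to birth day 2 the difference changed by 0.66 for fbxa-72 and 0.68 for fbxa-11, so their falls were smaller on birth day 2. The rises of fbxa-98 (-0.56) and fbxa-218 (-0.84) were also smaller on birth day 2. The falls of fbxa-192 (-0.47) and fbxa-210 (-0.63) were larger. On birth day 2 alone no member was called higher.

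In F5 mutants, 33 members differed from +/+ from +/+, where 33.1% of all probe sets were called. Of these, 21 were higher (16.9% of all probe sets) and 12 lower (16.1%). Fbxa-215 rose most, but unevenly. Its level was 8.43, 6.65 and 7.0 in F5 mutants of birth day 1, against 6.40, 6.51 and 6.26 in +/+ from +/+. Birth day 2 gave 7.45, 8.48 and 6.48 in mutants, against 6.49, 5.99 and 6.31 in +/+ from +/+. In 5 of the 6 mutant arrays it was above all +/+ from +/+ arrays of the day, and the difference was 1.09 ± 0.31 (SE, adjusted p = 0.00855). Fbxa-202 was more even, with 6.98, 6.19 and 6.44 in mutants against 5.57, 5.89 and 5.66 in +/+ from +/+ on birth day 1 and 6.55, 6.79 and 6.07 in mutants against 5.56, 5.72 and 5.92 in +/+ from +/+ on birth day 2. No array of the groups overlapped within a day, and fbxa-202 rose by 0.78 ± 0.15 (SE, adjusted p = 0.000149).

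Fbxa-72, the brightest member, fell most in F5 mutants. Its level was 7.75, 8.02 and 8.05 in mutants of birth day 1, against 8.69, 8.87 and 8.6 in +/+ from +/+. Birth day 2 gave 7.54, 7.42 and 7.99 in mutants, against 8.72, 8.48 and 8.34 in +/+ from +/+. The groups did not overlap within a day, and the difference was -0.82 ± 0.11 (SE, adjusted p = 3.89e-06). Fbxa-107 again fell, by 0.64, as did fbxa-115 (-0.48), fbxa-108 (-0.43), fbxa-216 (-0.40), fbxa-64 (-0.36), fbxa-74 (-0.35), fbxa-129 (-0.33), fbxa-38 (-0.24) and fbxa-160 (-0.17). Besides fbxa-215 and fbxa-202, the largest rises were fbxa-60 (0.61), fbxa-24 (0.49), fbxa-98 (0.49), fbxa-59 (0.44), fbxa-54 (0.43), fbxa-125 (0.38), fbxa-218 (0.37) and fbxa-182 (0.36). Dim among these rises were fbxa-60, fbxa-182, fbxa-24 and fbxa-54, at mean percentiles of 19.3, 17.4, 16.3 and 10.5. Among the falls fbxa-160 was dim, at 17.2. Of the members known from the pathogen response, fbxa-158 rose by 0.20 ± 0.05 (SE, adjusted p = 0.00481), and fbxa-75 was not called in F4 (0.07) or F5 mutants (-0.01). Fbxa-158 was not called in F5 mutants against +/+ from wdr-5. Both genes are dim, with mean percentiles under 25, which limits what their values can show.

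**Figure D2:**
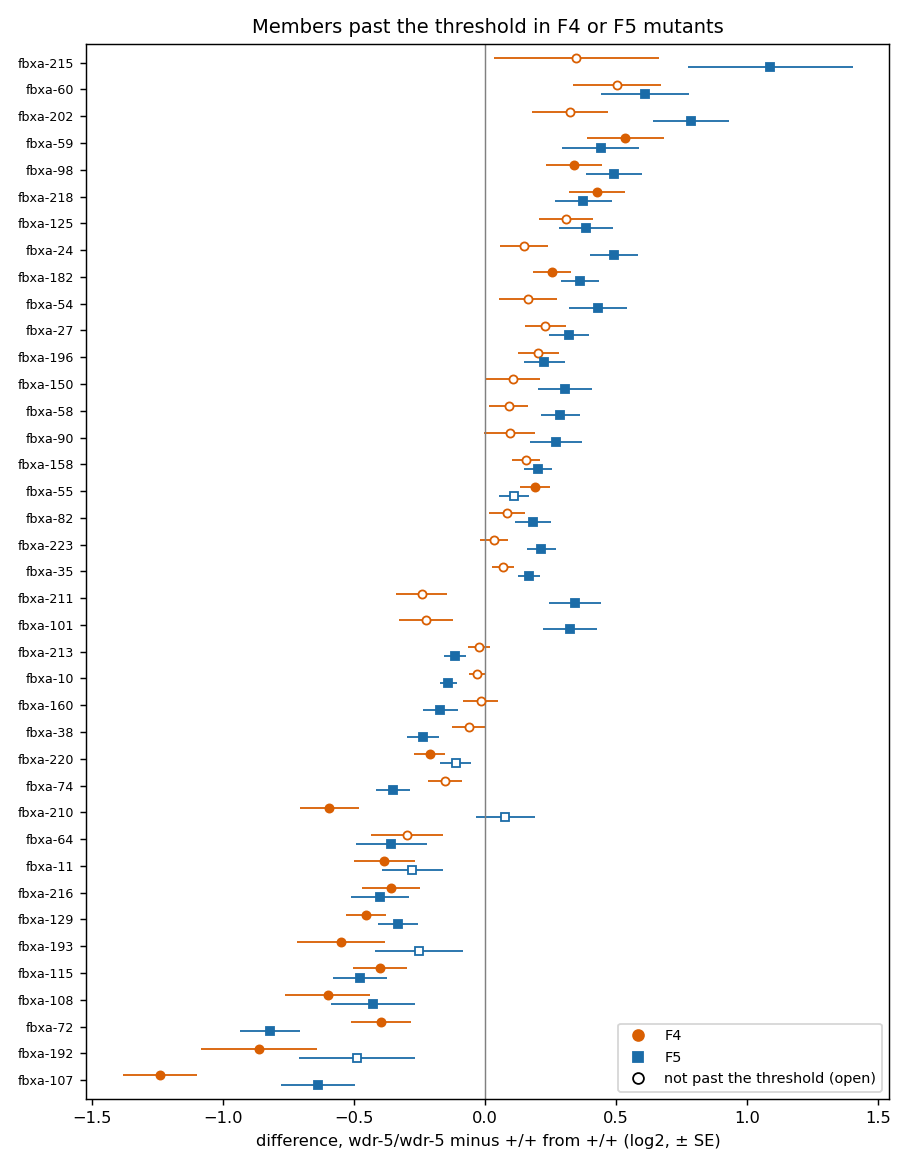
Difference of wdr-5/wdr-5 from +/+ from +/+ (log2, ± SE) for each member called in F4 (circles) or F5 (squares), with filled symbols past the threshold. Fbxa-107 lies farthest to the left in F4 and fbxa-215 farthest to the right in F5.

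The generations share no arrays, and 10 members were called in both against +/+ from +/+, all in the same direction. These are 6.49% of the members, 62.5% of their F4 calls and 30.3% of their F5 calls. Over the whole table, 7.12% of probe sets were called in both generations, which is 69.2% of the F4 calls and 21.5% of the F5 calls, and 99.9% of those had the same direction, so the overlap among the members was near the background. Fbxa-59, fbxa-98, fbxa-182 and fbxa-218 were higher in mutants of both generations, and fbxa-72, fbxa-107, fbxa-108, fbxa-115, fbxa-129 and fbxa-216 were lower. Whether the mutant difference itself changed between generations was tested as F5 minus F4. No member passed the threshold (0.00961% of all probe sets did), and 16 members (10.4%) had an unadjusted p under 0.05 in limma, against 14% of all probe sets. The smallest adjusted p-values were those of fbxa-210 (0.67, adjusted p = 0.093) and fbxa-211 (0.59, adjusted p = 0.0989). Fbxa-101 (0.55) and fbxa-107 (0.61) followed, with adjusted p = 0.116 and 0.165. Fbxa-210 and fbxa-101 passed without F4 +/+ from +/+ replicate 2 (adjusted p = 0.0343 and 0.0397), fbxa-210 also without F5 mutant replicate 6 (adjusted p = 0.043), and fbxa-211 without F4 mutant replicate 2 (0.0499).

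Setting the mutants against +/+ from wdr-5 uses the same mutant arrays with other wild-type arrays. In F4 13 members were called (11.8% of all probe sets called), 6 higher (5.85%) and 7 lower (5.95%). In F5 29 were called (30.3% of all probe sets), 21 higher (14.8%) and 8 lower (15.4%). Fbxa-107 was lower by 1.21 ± 0.14 (SE) in F4 and by 0.56 ± 0.15 (SE) in F5, and fbxa-72 by 0.86 ± 0.12 (SE) in F5. Fbxa-107, fbxa-115 and fbxa-129 (lower) and fbxa-98 and fbxa-218 (higher) were the 5 members (3.25%) called in all 4 mutant comparisons, where 4.99% of all probe sets were. A further 107 members (69.5%) were called in none of them, against 58.1% of all probe sets.

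Of these 5, fbxa-115 was at 4.42, 4.35 and 4.23 in F4 mutants, 4.72, 4.55 and 5.17 in +/+ from wdr-5 and 4.88, 4.57 and 5.18 in +/+ from +/+ on birth day 1. The F4 arrays of birth day 2 gave fbxa-115 at 4.39, 4.55 and 4.45 in mutants, 4.74, 4.72 and 4.80 in +/+ from wdr-5 and 4.74, 4.75 and 4.66 in +/+ from +/+. The mutants lay below both wild-type groups on each day. Fbxa-218 was at 5.69, 5.60 and 5.42 in F4 mutants against 4.67, 4.67 and 4.84 in +/+ from +/+ on birth day 1, and at 4.99, 5.07 and 5.01 in mutants against 4.96, 5.03 and 5.06 in +/+ from +/+ on birth day 2. Its F4 rise was thus seen on birth day 1 (0.85) and was 0.01 on birth day 2. In F5, fbxa-98 was at 5.66, 4.99 and 5.30 in mutants against 4.65, 4.74 and 4.36 in +/+ from +/+ on birth day 1, and at 5.26, 5.34 and 5.36 in mutants against 5.01, 5.07 and 5.12 in +/+ from +/+ on birth day 2. All 6 mutant arrays were above those of +/+ from +/+ of their day.

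**Figure D3:**
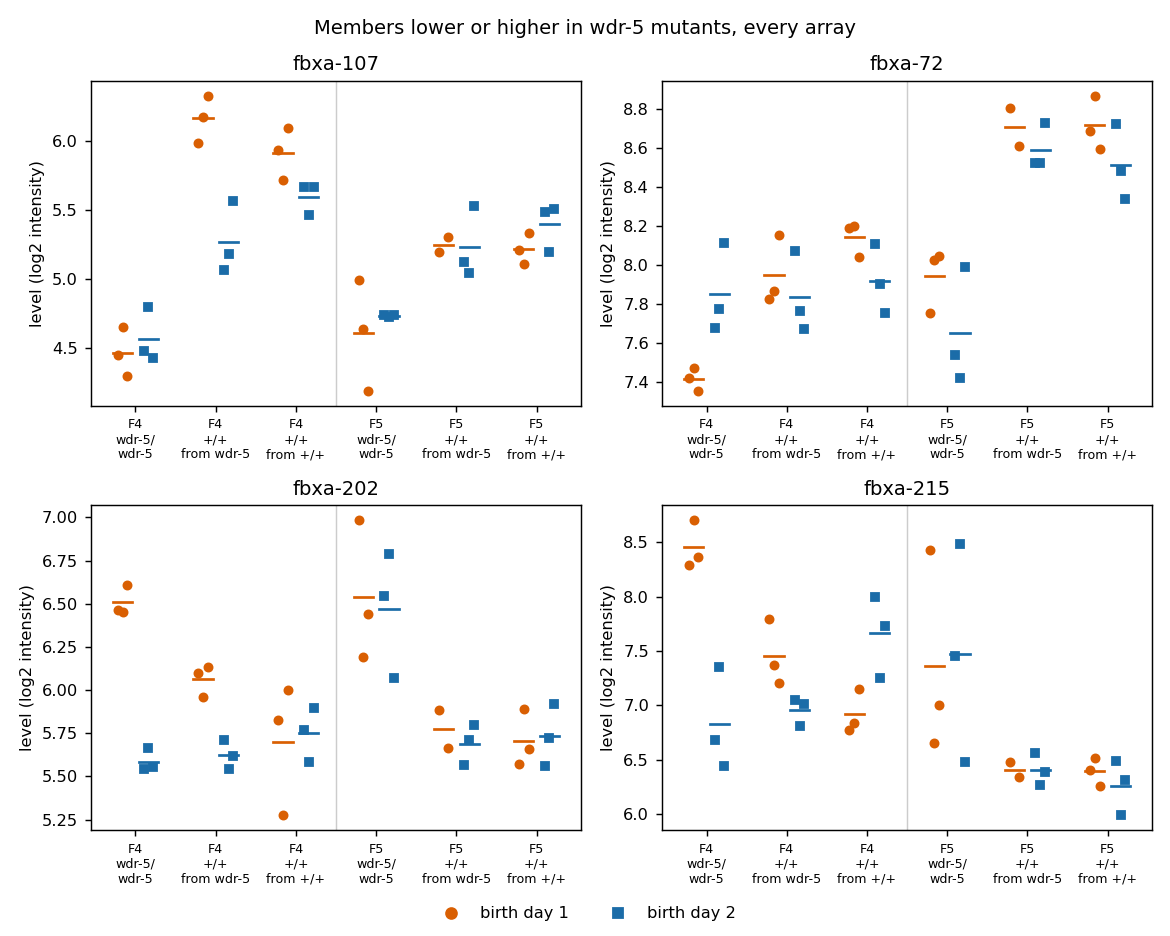
Level of fbxa-107, fbxa-72, fbxa-202 and fbxa-215 (log2 intensity) on every array by group, with circles for birth day 1, squares for birth day 2 and a line at each mean. Fbxa-107 is lowest in mutants on both days of both generations, and fbxa-202 and fbxa-215 are higher than +/+ from +/+ in F4 mutants on birth day 1 but not on birth day 2.

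Among the 53 members at or above the 25th percentile, 12 were called in F4 mutants (12.6% of such probe sets in the whole table) and 20 in F5 mutants (40.7%), both against +/+ from +/+. Among the 101 dim members 4 were called in F4 (3.52%) and 13 in F5 (10.3%). None of the 15 members on chromosome X was called in either comparison, where 10.1% of all probe sets matched to X were called in F4 and 34.5% in F5. Among the 68 members on chromosome V, 0 were higher and 8 lower in F4, against 4.58% and 5.91% of all probe sets matched to V, and in F5 7 were higher and 7 lower, against 13.7% and 13.3%. Of the 19 pseudogenes, 2 were called in F4 and 3 in F5, where 5.81% and 14.1% of all probe sets matched to pseudogenes were.

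The difference of F4 mutants from +/+ from +/+ changed between birth day 2 and birth day 1 for 28 members where 33% of all probe sets did, with 14 up (17.9% of all probe sets) and 14 down (15.1%). Fbxa-215 changed most. Its level was 8.29, 8.70 and 8.36 in F4 mutants against 6.77, 6.84 and 7.15 in +/+ from +/+ on birth day 1, but 6.68, 7.35 and 6.44 in mutants against 8.0, 7.26 and 7.73 in +/+ from +/+ on birth day 2. Fbxa-202 was at 6.46, 6.45 and 6.61 in mutants against 5.83, 5.28 and 6.00 in +/+ from +/+ on birth day 1, and at 5.54, 5.66 and 5.55 in mutants against 5.77, 5.58 and 5.90 in +/+ from +/+ on birth day 2. In the same F4 arrays, the means of germline and sperm marker genes lay above +/+ from +/+ on birth day 1 and below it on birth day 2. The germline mean was 8.08 to 8.22 in F4 mutants against 7.44 to 7.68 in +/+ from +/+ on birth day 1, and 7.57 to 7.91 in mutants against 8.03 to 8.25 in +/+ from +/+ on birth day 2. The sperm mean was 8.62 to 8.76 in F4 mutants against 7.37 to 7.86 in +/+ from +/+ on birth day 1, and 7.98 to 8.23 in mutants against 8.48 to 8.64 in +/+ from +/+ on birth day 2. The sperm mean covers 19 of 38 listed genes. Other means also differed between F4 mutants and +/+ from +/+ on birth day 1. Lower in mutants were intestine (9.67 to 9.81 against 10.07 to 10.09) and body wall muscle genes (9.32 to 9.40 against 9.55 to 9.67). Moulting (8.54 to 8.74 against 8.96 to 9.05) and neuron genes were lower too, and vitellogenins higher (10.6 to 11.3 against 8.62 to 9.39). On birth day 2 the neuron mean was higher and these other ranges overlapped. The part of these markers in the change of fbxa-215, fbxa-202 and the other members was not tested. On birth day 1 alone, with a mean for each group and day, 43 members were called (18 higher, 25 lower, 36.6% of all probe sets). The 7 called on birth day 2 were all lower (13.4% of all probe sets): fbxa-192, fbxa-107, fbxa-210, fbxa-193, fbxa-101, fbxa-108 and fbxa-129. In F5 the day changed the mutant difference of 1 member, fbxa-192 (-0.83, adjusted p = 0.0368), where 0.0721% of all probe sets were called, 0.0385% upward.

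The genes fbxa-192, fbxa-193, fbxa-129 and fbxa-108, which follow each other on chromosome V in RefSeq's gene order, were all lower in F4 mutants. The family holds 10 runs of at least 3 neighbours, covering 59 members, and the longest has 11 on chromosome III. In the run of 4, fbxa-193 and fbxa-129 are annotated as pseudogenes. Fbxa-129 was at 5.25, 5.02 and 4.71 in F4 mutants against 5.64, 5.41 and 5.38 in +/+ from +/+ on birth day 1, and at 4.56, 4.52 and 4.62 in mutants against 5.07, 4.97 and 4.96 in +/+ from +/+ on birth day 2. In F5, fbxa-129 and fbxa-108 were called lower, while fbxa-192 and fbxa-193 were lower on birth day 2 (-0.91 and -0.46) and close to +/+ from +/+ on birth day 1. After group and day means were removed, fbxa-192 and fbxa-193 correlated at r = 0.52 over 35 arrays and the other pairs at -0.20 to 0.29. These probe sets share arrays, so the values are a description. The run of 3 formed by fbxa-107, fbxa-210 and fbxa-211, also on V, was split: fbxa-107 was lower in mutants of both generations, fbxa-210 lower in F4 (-0.59) and not called in F5 (0.08), and fbxa-211 higher in F5 (0.34).

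**Figure D4:**
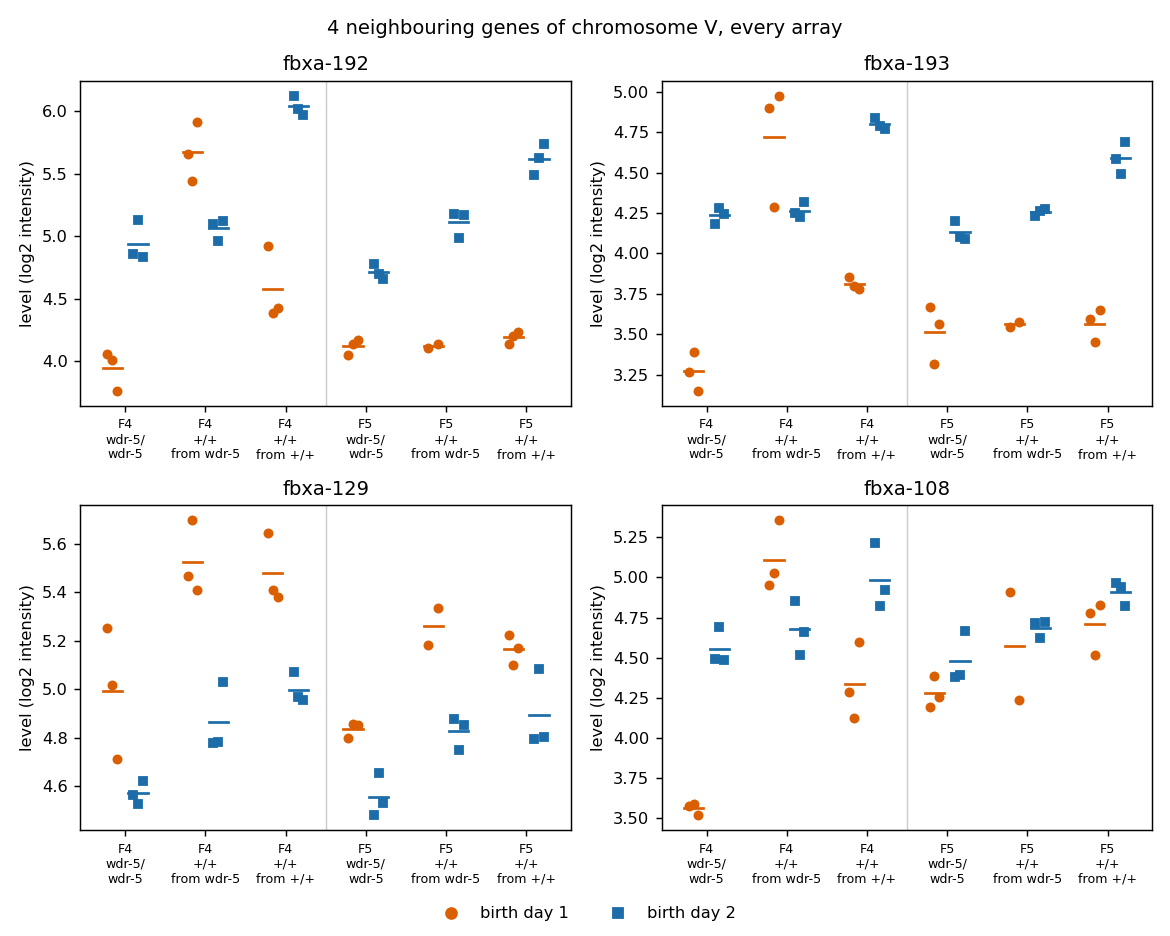
Level of fbxa-192, fbxa-193, fbxa-129 and fbxa-108 (log2 intensity) on every array by group, with circles for birth day 1, squares for birth day 2 and a line at each mean. In F4, +/+ from wdr-5 lies above +/+ from +/+ on birth day 1 and below it on birth day 2 for fbxa-192, fbxa-193 and fbxa-108.

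The wild-type lineages were compared to ask whether descent from mutants left a difference. With both birth days together no member passed in F4, in F5 or in their mean (0% of all probe sets in each). At an unadjusted p under 0.05, limma gave 3, 1 and 7 members, against 3.6%, 1.01% and 2.23% of all probe sets. The smallest p-values in F4 were those of fbxa-176, fbxa-199, fbxa-15, fbxa-220 and fbxa-102, with differences of -0.16 to -0.09. In F5 they were those of fbxa-221 (0.20), one probe set of fbxa-46 (0.08), fbxa-19 (-0.18), fbxa-47 (-0.09) and fbxa-16 (0.09). The difference also did not change between generations for any member at the threshold (0% of all probe sets; 3 members, or 1.95%, at an unadjusted p under 0.05 in limma, against 1.68% of all probe sets).

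Within a birth day, the F4 lineages did differ, and in opposite directions. On birth day 1, 4 members were called (0.745% of all probe sets). Fbxa-192 (1.10), fbxa-193 (0.91) and fbxa-108 (0.77) were higher in +/+ from wdr-5, as were 0.269% of all probe sets, and fbxa-176 (-0.32) was lower, as were 0.476%. On birth day 2, fbxa-192 (-0.98) and fbxa-193 (-0.53) were called lower and no member higher (0.231% of all probe sets called, 0.0673% lower and 0.163% higher). The level of fbxa-192 was 5.66, 5.44 and 5.91 in +/+ from wdr-5 against 4.92, 4.39 and 4.42 in +/+ from +/+ on birth day 1, and 5.1, 4.97 and 5.13 in +/+ from wdr-5 against 6.12, 6.02 and 5.97 in +/+ from +/+ on birth day 2. Fbxa-193 was at 4.90, 4.29 and 4.97 in +/+ from wdr-5 against 3.85, 3.80 and 3.78 in +/+ from +/+ on birth day 1, and at 4.25, 4.22 and 4.32 in +/+ from wdr-5 against 4.84, 4.79 and 4.77 in +/+ from +/+ on birth day 2. The groups do not overlap on either day for either gene. Fbxa-193 is dim, at a mean percentile of 17.4 over all arrays. For comparison, the 25th percentile was 3.82 to 3.91 on the F4 +/+ from +/+ arrays of birth day 1. It was 4.56 to 4.63 on the F4 +/+ from wdr-5 arrays of birth day 2.

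The change of the F4 lineage difference between the days, birth day 2 minus birth day 1, was called for 3 members, all downward (1.81% of all probe sets, 0.88% downward and 0.932% upward). It was -2.07 ± 0.17 (SE, adjusted p = 7.77e-09) for fbxa-192, -1.44 ± 0.15 (SE, adjusted p = 1.1e-06) for fbxa-193 and -1.08 ± 0.20 (SE, adjusted p = 0.00426) for fbxa-108. In F5 no member was called on birth day 1 (0.00961% of all probe sets called), on birth day 2 (0%) or for the change between days (0.00961%). At an unadjusted p under 0.05, limma gave 8, 3 and 3 members (5.19%, 1.95% and 1.95%) in these comparisons, against 2.55%, 1.91% and 2.75% of all probe sets. On birth day 2, fbxa-192 was at 5.18, 4.99 and 5.17 in F5 +/+ from wdr-5 against 5.49, 5.63 and 5.74 in +/+ from +/+ (-0.51, adjusted p = 0.748), with no overlap. On birth day 1 fbxa-192 was at 4.11 and 4.14 in F5 +/+ from wdr-5 against 4.14, 4.20 and 4.24 in +/+ from +/+. The part of the different low end of the birth days in the changes between days was not tested.

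Yolk protein genes differed in the same direction as these members on both days, although none of the 6 vitellogenins was called on either day in limma (3 on each day at an unadjusted p under 0.05). Their mean level was 9.92 to 10.8 in F4 +/+ from wdr-5 against 8.62 to 9.39 in +/+ from +/+ on birth day 1, and 9.0 to 10.1 in +/+ from wdr-5 against 10.3 to 11.5 in +/+ from +/+ on birth day 2. The germline gene mean was 7.74 to 7.92 in +/+ from wdr-5 against 7.44 to 7.68 in +/+ from +/+ on birth day 1, and 7.82 to 7.88 in +/+ from wdr-5 against 8.03 to 8.25 in +/+ from +/+ on birth day 2. On birth day 1 the sperm gene mean was 8.13 to 8.21 in +/+ from wdr-5 against 7.37 to 7.86 in +/+ from +/+. On birth day 2 it was 8.20 to 8.40 in +/+ from wdr-5 against 8.48 to 8.64 in +/+ from +/+. The part of these markers in the difference of fbxa-192, fbxa-193 and fbxa-108 was not tested. Within groups and days, these 3 members correlated with the vitellogenin mean at r = -0.03, 0.17 and 0.08 over 35 arrays. Their r was 0.09, 0.28 and 0.06 with the germline mean and 0.14, 0.21 and -0.09 with the sperm mean. With the moulting gene mean it was -0.24, -0.30 and -0.21.

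**Figure D5:**
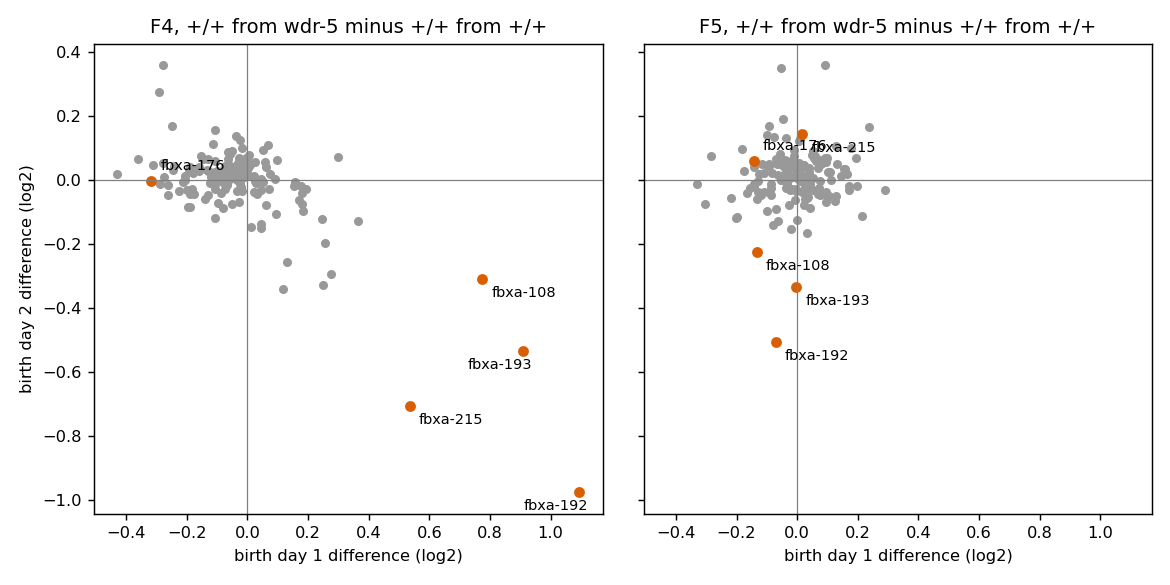
Difference of +/+ from wdr-5 from +/+ from +/+ (log2) on birth day 2 against birth day 1 for the 154 members, in F4 (left) and F5 (right). Fbxa-192, fbxa-193 and fbxa-108 lie at lower right in F4, with differences of 1.10, 0.91 and 0.77 on birth day 1, while in F5 their differences are -0.07, -0.00 and -0.13 on birth day 1.

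Markers of stage and germline changed too. In F5 mutants against +/+ from +/+, 6 of 6 vitellogenins, 12 of 15 germline genes and 16 of 19 sperm genes were called higher, and 13 of 15 moulting genes lower. Of all 20806 probe sets, 6878 were called in that comparison, counting both directions. The mean level of the germline genes was 7.66 to 8.29 in F5 mutants of birth day 1 against 7.39 to 7.5 in +/+ from +/+, and 7.85 to 8.36 in mutants against 7.60 to 7.63 in +/+ from +/+ on birth day 2. Within groups and days, fbxa-215 correlated with the germline mean at r = 0.92 and fbxa-202 at 0.77, while fbxa-72 gave -0.47 and fbxa-107 0.42. These correlations share arrays, and the part of these markers in the results was not tested.

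The genes whose residuals from group and day means were most like those of fbxa-215 were chs-1 (chitin synthase of the eggshell), cey-3 (a Y-box RNA-binding protein), gln-6, nasp-2 and rme-2 (the yolk receptor of oocytes), at r = 0.93 to 0.95 over 35 arrays. Their F4 and F5 mutant differences were 0.70 and 1.75 for chs-1, 0.07 and 0.88 for cey-3, 0.04 and 1.15 for gln-6, 0.43 and 1.20 for nasp-2, and 0.35 and 1.52 for rme-2. For fbxa-107 they were gei-3, sacm-1L, T09F3.2, gtnt-5 and F54D5.9, at r = 0.67 to 0.72. The F4 and F5 mutant differences of these were -0.11 and -0.20 for gei-3, 0.20 and 0.40 for sacm-1L, -0.12 and 0.06 for T09F3.2, -0.12 and -0.04 for gtnt-5, and 0.39 and 0.52 for F54D5.9.

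Among the other parts of the ligases, 37 core SCF genes and cullin regulators were measured. In F4 mutants against +/+ from +/+, 8 were higher and 1 lower (24.3%, where 10.3% of all probe sets were called), and in F5 13 were higher and none lower (35.1%, where 33.1% were called and 16.9% higher). The list had medians of 0.06 and 0.15 against -0.02 and -0.03 over all probe sets. Rfl-1, part of the NEDD8-activating enzyme, rose by 0.27 in F4 and 0.59 in F5, and rbx-2, a RING subunit, by 0.22 and 0.43. The Skp1-related skr-4 rose by 0.37 and 0.35, and skr-17 fell by 0.61 in F4. Of 11 other named F-box genes, none was called in F4 (1 at an unadjusted p under 0.05 in limma), where 10.3% of all probe sets were. In F5, where 33.1% were called, fog-2 (0.74), fsn-1 (0.71), mec-15 (0.64) and lin-23 (0.31) were higher and dre-1 (-0.41) lower. Of 9 pathogen response genes, skr-4 was called in F4 (10.3% of all probe sets), and skr-4, cul-6, skr-5 and fbxa-158 in F5 (33.1%). Skr-4 alone among them was also called in F5 mutants against +/+ from wdr-5, and skr-5 and fbxa-158 are dim. Skr-4, cul-6 and skr-5 are also in the core list above, and fbxa-158 is counted among the F-box A members. In the F-box B family 2 of 93 members were called in F4 and 6 in F5, in the F-box C family 0 of 40 and 4, and among MATH and BATH genes (other substrate adaptors) 7 of 88 and 20. These are 2.15% and 6.45% of F-box B, 0% and 10% of F-box C, and 7.95% and 22.7% of MATH and BATH genes, all below the 10.3% and 33.1% of all probe sets called in F4 and F5.

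Several calls were lost when 1 array was left out, many of them with any of several arrays. Without replicate 1 of F4 +/+ from +/+ or replicate 3 of the F4 mutants the F4 count was 8 or 9 members in place of 16. Fbxa-98 lost its F4 call without any of replicates 1 to 3 of either group (adjusted p up to 0.124), and fbxa-193 without replicates 4, 5 or 6 of +/+ from +/+ or 1, 2 or 3 of the mutants (up to 0.0953). Fbxa-72 lost it without replicates 1 or 2 of +/+ from +/+ or 1, 2 or 3 of the mutants (up to 0.0767). Fbxa-55, fbxa-11, fbxa-182, fbxa-220, fbxa-59 and fbxa-108 lost it without 5, 4, 2, 2, 1 and 1 of the 12 arrays. Against +/+ from wdr-5 the F4 count was 21 without mutant replicate 6, in place of 13, and fbxa-218, fbxa-98 and fbxa-69 lost their calls without 5, 1 and 1 arrays. In F5, fbxa-108 lost its call without 9 of 12 arrays, fbxa-160 without 8, fbxa-64 without 7 and fbxa-59 without 3. Against F5 +/+ from wdr-5, fbxa-215 lost its call without mutant replicate 1 or 5 (adjusted p up to 0.0869), fbxa-216 without 6 arrays and fbxa-64 without 4. In the F4 lineages on birth day 1 the count was 2 without replicate 1 or 2 of +/+ from +/+ or replicate 3 of +/+ from wdr-5, and 12 without replicate 3 of +/+ from +/+. Without that array the change of the F4 lineage difference between days was called for 9 members, and that of the F4 mutant difference for 18 without +/+ from +/+ replicate 4 or mutant replicate 6. On birth day 2 fbxa-193 was lost without 5 of 6 arrays (adjusted p up to 0.232), and on birth day 1 fbxa-108 without 3 (up to 0.0792) and fbxa-176 without 5 (up to 0.211). The call of fbxa-192 for the F5 day change was lost without 8 of 12 arrays (up to 0.123). Fbxa-107, fbxa-115 and fbxa-129 stayed called in all 4 mutant comparisons, whichever single array of the groups compared was left out. So did fbxa-192 in the F4 lineages on both days and fbxa-193 in them on birth day 1.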

How the data were processed

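Values were used as deposited, on a log2 scale of probe set intensity. RMA (robust averaging over multiple arrays) is the tool named in the submitters' processing notes; base 2 was read from the range of values, and the software version is not given in the sources used here. The deposited symbols named the probe sets, and 35 columns of per-sample values in tables per birth day were not used. Members and gene lists were chosen with earlier results of these data known. RefSeq's table matched 118 members by accession and 36 by symbol; it was used for names, biotypes and gene order. Of all probe sets, 92.8% matched.

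Values were fitted with limma 3.58.1 (lmFit, eBayes with an intensity trend) under R 4.3.3 over all 35 arrays, with the 6 groups and birth day within each generation (27 residual degrees of freedom). Values within a day came from a fit with a mean for each group and day (23). Tests were two-sided and adjusted over all 20806 probe sets. The number of arrays limits the precision. The fits were run on simulated data with independent noise and, for most probe sets, the same day effect in all groups. The F4 data depart from that setting, as many group differences changed with the day.

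Members were named by rule: up to 10 largest rises and falls called with 1 sign on both days in each mutant comparison, the 5 smallest p-values where fewer than 3 were called, up to 8 rises and falls within a day, the 5 brightest and dimmest, fbxa-75, fbxa-158, called members of the ligase lists, wdr-5.1, and the 5 genes most like the most raised and most lowered member. Fbxa-216 in F4 and members listed by day, by neighbour or by loss of a call were added after their values were seen. Alternatives were another normalization, no intensity trend, no birth day term, each day alone, a dim filter, only the groups compared, repeated probe sets collapsed, a replicate block and each array left out. Sequences were not used here.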

Additional observations from a re-analysis of the deposited data

Results flagged for a closer look

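In each group of 5 or 6 arrays, the highest and lowest array of the 42 genes named for a test was checked for standing apart, on values less the gene's median over all arrays of the birth day. Of 252 gene and group pairs 21 did. The rule gives about 1 in 20 for a single normal sample. That rate need not hold here, because each group spans 2 birth days and most of the genes were picked by their tests. In F4 mutants the arrays that stood apart were fbxa-54 at 3.80 (high, replicate 3), fbxa-102 at 3.07 (low, replicate 3). In F4 +/+ from wdr-5 the arrays that stood apart were fbxa-160 at 3.38 (low, replicate 3), fbxa-60 at 3.40 (low, replicate 2), fbxa-11 at 4.41 (low, replicate 1), fbxa-74 at 4.60 (high, replicate 2). In F4 +/+ from +/+ the arrays that stood apart were fbxa-11 at 5.50 (high, replicate 2). In F5 mutants the arrays that stood apart were fbxa-160 at 4.40 (high, replicate 6), fbxa-24 at 4.51 (high, replicate 1), fbxa-64 at 5.97 (high, replicate 6). In F5 +/+ from wdr-5 the arrays that stood apart were fbxa-182 at 3.72 (high, replicate 1), fbxa-60 at 3.70 (low, replicate 2), fbxa-108 at 4.91 (high, replicate 1), fbxa-16 at 3.44 (high, replicate 2), fbxa-221 at 3.11 (high, replicate 2). In F5 +/+ from +/+ the arrays that stood apart were fbxa-55 at 3.47 (high, replicate 2), fbxa-59 at 6.42 (low, replicate 5), fbxa-128 at 5.88 (high, replicate 5), fbxa-129 at 5.08 (high, replicate 5), fbxa-211 at 5.40 (high, replicate 6), fbxa-221 at 2.81 (high, replicate 2).

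The effect of group also differed between the birth days, tested as the difference on birth day 2 minus that on birth day 1 in log2. For the F4 lineage difference this held for fbxa-192 (-2.07), fbxa-108 (-1.08), fbxa-193 (-1.44). For the F4 mutant difference it held for fbxa-218 (-0.84), fbxa-98 (-0.56), fbxa-192 (-0.47), fbxa-210 (-0.63), fbxa-72 (0.66), fbxa-11 (0.68), fbxa-215 (-2.37), fbxa-202 (-0.97), fbxa-125 (-0.70), fbxa-216 (0.93), fbxa-64 (0.70), fbxa-38 (0.29), fbxa-199 (0.38), fbxa-15 (0.31), fbxa-16 (0.26), fbxa-101 (-0.59). For the F5 mutant difference it held for fbxa-192 (-0.83). The part of the marker genes, and of the different low end of the birth days, in these values was not tested.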

How the results depend on the processing

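Counts of called members moved most with the handling of birth day. The share of all probe sets called under each setting is not given here. These counts are therefore not set against the whole table and are not read as results about the family. Without a birth day term the mutant counts were 2 (F4) and 9 (F5) against +/+ from +/+, and 4 and 7 against +/+ from wdr-5. With birth day 1 arrays alone they were 33 and 20, and 20 and 15, and the F4 lineage count was 2. With birth day 2 arrays alone the F4 lineage count was 2, the mean lineage count 2, the F4 count against +/+ from wdr-5 4 and the F5 minus F4 mutant count 18. Fitting only the groups compared gave 9 in F4. Quantile normalization gave 2 for the F4 lineage difference on birth day 1 and 1 for the F5 one on birth day 2. The dim filter, which keeps 53 members and so tests fewer, gave 18 in F5 against +/+ from wdr-5, and 2 and 1 for the F4 lineage difference on birth days 1 and 2. For the other moves the cause was not tested. Signs that turned were the F5 lineage difference of fbxa-47 without a birth day term (0.0041) and, on birth day 2 alone, the F4 ones of fbxa-15 (0.015) and fbxa-102 (0.056). Same-numbered arrays of different groups correlated at r = -0.30 to 0.32 with group and day means removed, over 0.1 in 11 of 34 pairs, so the numbers were not taken to pair the samples. With the replicate number as a block the mutant counts were 13 and 38 against +/+ from +/+, and 12 and 29 against +/+ from wdr-5, and the lineage counts stayed at 0. Leaving out 1 array gave 8 to 23 (F4) and 27 to 37 (F5) against +/+ from +/+, 11 to 21 and 23 to 31 against +/+ from wdr-5, and 0 to 2 for F5 minus F4. It gave 2 to 12 and 1 to 2 for the F4 lineage difference on birth days 1 and 2, 3 to 9 for its change between days, and 18 to 32 (F4) and 0 to 1 (F5) for that of the mutant difference. Both lineage counts over both days, their mean and the F5 lineage counts by day stayed at 0. The 101 dim members limit what these arrays can show.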

Other observations

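The longest run of neighbouring members, 11 genes on chromosome III, was mixed. Against +/+ from +/+, fbxa-55 and fbxa-59 were higher and fbxa-11 lower in F4 mutants, and fbxa-54, fbxa-59 and fbxa-60 were higher and fbxa-10 lower in F5 mutants. Of the 9 neighbours on chromosome II that include fbxa-158 and fbxa-160, none was called in F4, and in F5 fbxa-158 was higher and fbxa-160 lower. The 6 neighbours from fbxa-185 to fbxa-134 and the 5 from fbxa-176 to fbxa-133, both on chromosome V, held no call in this mutant comparison in either generation. In the order given, the median of the mean percentiles in these runs was 10.5, 14.8, 8.1 and 5.1. Of all probe sets under the 25th percentile, 3.52% were called in F4 and 10.3% in F5. The genes of these runs were picked by position after their values were seen.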
